A study of Brassica oleracea with 12 samples.

Results

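Genes of the phenylpropanoid and lignin pathway were read in the leaves of a variegated kale, Brassica oleracea 'JC007-2B'. A row of the gene table was a member when its KEGG annotation listed phenylpropanoid biosynthesis and did not list flavonoid biosynthesis, which took 157 of the 45325 rows, 4581 of which carry a KEGG pathway. The cinnamyl alcohol dehydrogenase row Bo7g116770 is annotated to the pathway and was among them. A further 18 rows are annotated to both pathways and were not members, namely rows of cinnamate 4-hydroxylase (C4H), the hydroxycinnamoyl transferase HCT, p-coumaroyl ester 3-hydroxylase (C3H) and caffeoyl-CoA O-methyltransferase (CCoAOMT).

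The libraries came from 1 double-haploid line grown in greenhouses, so all 4 groups share a genotype and none is a green wild type. S1 was fully green leaves sampled without veins, and S2 was leaves sampled without veins when the white center had begun to form inside a green margin, a change that follows chilling. S3_S was the green margin and S3_C the white center of leaves at the later variegated stage. Each group had 3 libraries of poly(A) RNA, described for the S3 groups as independent biological replicates, and the sources used here do not say whether margin and center were cut from the same leaves. For S1 and S2 the p-values therefore measure the spread between libraries, which may be technical. S2 held white and green tissue together. S1 and S2 were labelled as leaves without veins and S3_S and S3_C were not, so in any comparison of S3 with an earlier stage the stage and the removal of veins cannot be told apart.

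The phenylpropanoid pathway starts when phenylalanine ammonia-lyase (PAL) removes ammonia from phenylalanine and 4-coumarate:CoA ligase (4CL) activates the resulting cinnamates as CoA esters. Other enzymes then modify the aromatic ring, cinnamoyl-CoA reductase (CCR) and cinnamyl alcohol dehydrogenase (CAD) reduce the side chain to the monolignols, and class III peroxidases and laccases couple the monolignols into lignin in the cell wall. In leaves, lignin is deposited mainly in the xylem and fibers of the veins, while the same early steps feed soluble compounds such as sinapate esters, which absorb ultraviolet light in the mesophyll and epidermis.

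Values are FPKM, fragments per kilobase of transcript, scaled to the library's mapped fragments, which the authors computed per gene. The deposited values summed to between 429278 and 461587 per library. The table holds no read numbers, and a relative depth read from the smallest steps of the values lay between 0.902 and 1.35 times that of S1 replicate 1. Over genes above 0 in all libraries the level of the typical gene differed between groups, with median-of-ratios factors from 0.703 in an S1 library to 1.3 in an S3_C library. The light-harvesting gene LHCB5, in a row joined with Bo3g044660, stood at 75.3 ± 22.4 FPKM (SD, n = 3) in S3_S and 10.1 ± 1.41 in S3_C, at 30.1 ± 7.71 in S1 and 14.3 ± 10.2 in S2.

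The 157 members were grouped by their KEGG orthology, which in most rows is the only annotation, so a name such as F5H below is that assignment and not a tested function. There were 62 class III peroxidase rows, 41 beta-glucosidase rows, 9 PAL and 4CL rows, 9 CAD rows, 8 rows of the sinapate, aldehyde and coumarin branch, 5 rows of FAD-linked oxidoreductases, 4 rows of ferulate 5-hydroxylase (F5H) and 2 rows of caffeoyl shikimate esterase (CSE). The remaining 17 rows enter the counts and sums over all members and are not described here. Every member was above 0 FPKM in at least 1 library and 75 were above 0 in all 12. A mean of at least 1 FPKM over the 12 libraries was reached by 68 members (43.3%), against 55.3% of all genes, and 67 members averaged under 0.3 FPKM. A mean of 1 FPKM was reached by 17 of 62 peroxidases, 24 of 41 beta-glucosidases, 7 of 9 PAL and 4CL rows, 4 of 9 CAD rows, 2 of 8 rows of the sinapate, aldehyde and coumarin branch and 1 of 5 FAD-linked oxidoreductases.

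A few rows carried most of the pathway's transcripts. The 3 highest, the peroxidase PRXR1 with a mean of 177 FPKM, the beta-glucosidase BGLU44 with 118 and the alcohol dehydrogenase ATCAD9 with 100.3, held 35.7% of the summed FPKM of all members, and the 10 highest held 61.0%. Some neighbouring loci of the same orthology differed in level. Of 15 pairs of consecutive locus numbers with the same orthology, 10 had means more than 5-fold apart. Only 5 pairs had both rows at a mean of 1 FPKM or more, with ratios of 1.91, 2.58, 2.67, 17.3 and 18.2. In the other pairs a row was under 1 FPKM, so the ratio rests on low values. The beta-glucosidases BGLU44 with 118 FPKM and BGLU43 with 6.84 FPKM were the pair at 17.3. Reads of such near copies may have been divided between them by the authors' counting.

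Summed over all members, FPKM was lowest in the green margin. The sums were 1214, 1387 and 957 in S1, 1541, 1499 and 1362 in S2, 853, 585 and 591 in S3_S, and 1251, 1053 and 998 in S3_C. In FPKM as deposited, all 3 margin libraries lay below the other 9, and the S2 libraries held 2 of the 3 highest sums. Both orders depend on the scale, since the median-of-ratios factors were lowest in S1 and highest in S3_C. Divided by these factors, S3_S replicate 1 would lie above S3_C replicates 2 and 3. S1 replicates 1 and 2 would then lie above every S2 library. Among the roles, the 9 CAD rows summed to 90.9, 76.1 and 68.9 FPKM in S3_S and to between 138 and 277 in the other 9 libraries. For PAL and 4CL the groups overlapped, with 13.0 to 21.3 in S3_S and 15.1 to 34.1 elsewhere.

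**Figure D1:**
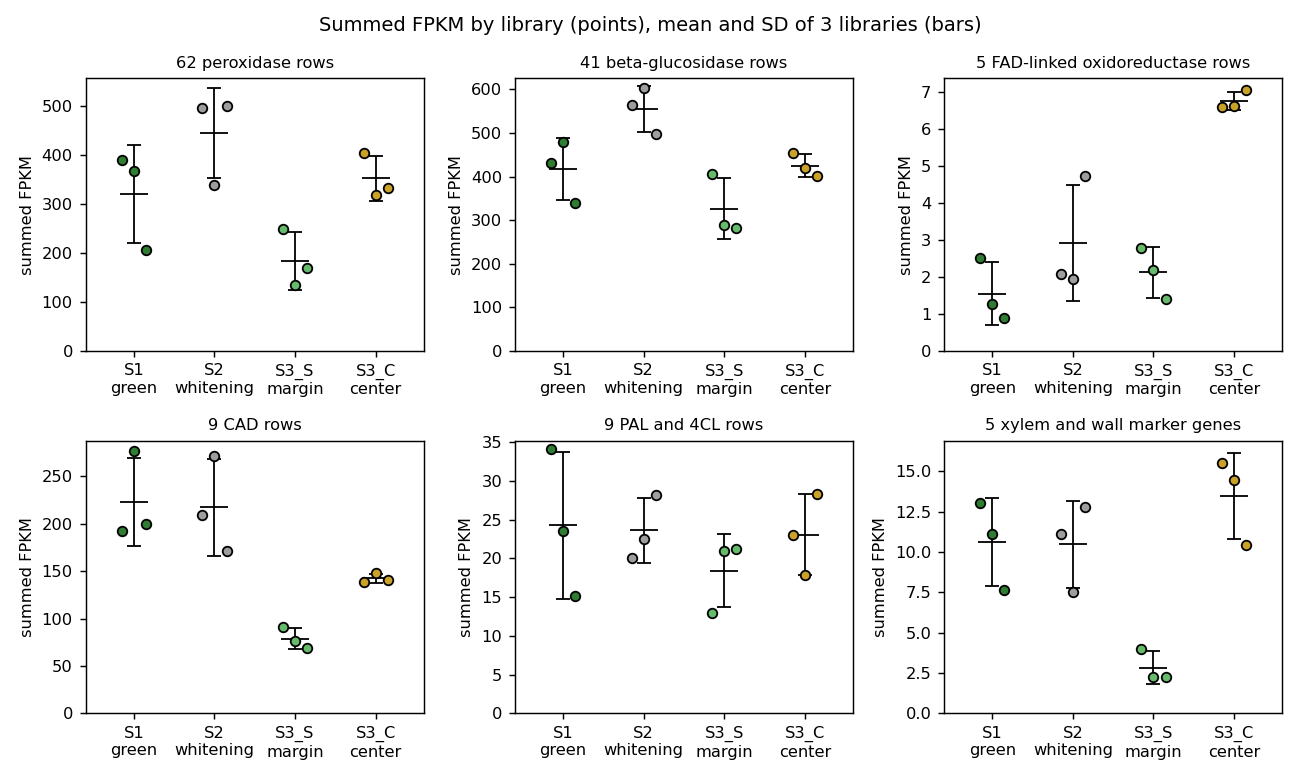
Summed FPKM (y axis, from 0) of the rows of 5 groups of members and of 5 xylem and secondary wall marker genes in the 4 groups (x axis); points are libraries and bars the mean and SD of 3. The CAD rows and the xylem markers have all 3 S3_S libraries below every other library, while the PAL and 4CL rows overlap between the groups.

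Xylem genes moved in the same direction. Of a list of 13 xylem and secondary wall markers, 5 could be matched to rows, and their summed FPKM was 2.22 to 3.99 in S3_S, 10.5 to 15.5 in S3_C, 7.67 to 13.1 in S1 and 7.51 to 12.8 in S2. The cellulose synthase genes of the secondary wall CESA4 and CESA8 and the xylem protease XCP1 were lower in S3_S than in S3_C, with log2 fold changes of -1.24, -1.40 and -1.61 (adjusted p = 0.0456, 0.0306 and 0.0559 from limma), and the row Bo8g079630, named for IRX15, was at 0 in 10 of 12 libraries. The part of vein tissue in the differences of the members was not tested. The bulk libraries cannot separate fewer cells of a type from less RNA per cell. The ranges of S1 and S2, both labelled as leaves without veins, overlapped that of S3_C.

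Which group stood lowest also set the members apart from the typical gene by description. Among the 68 members with a mean of at least 1 FPKM, S3_S had the lowest group mean for 37 (54.4%) and S1 for 21 (30.9%), whereas over the 25074 genes that reached this level S3_S was lowest for 31.4% and S1 for 54.8%. After median-of-ratios scaling S3_S was lowest for 32 of the 68 (47.1%), against 30.4% of all genes. The highest group mean was in S2 for 25 members (36.8%, against 24.9% of all genes), S1 for 18 (26.5% against 14.9%), S3_C for 16 (23.5% against 41.4%) and S3_S for 9 (13.2% against 18.9%). This order depended on the scale, since after median-of-ratios scaling S1 was highest for 33, S2 for 19, S3_S for 9 and S3_C for 7.

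The comparison of S3_S with S3_C asks how green margin and white center of the same stage differ. A member passed the threshold when limma gave an unadjusted p below 0.05 with a log2 change beyond 1 in size, the limits the study used, with changes computed on log2(FPKM + 1), a scale that understates the change of low genes. Of 146 members tested 14 passed, 1 higher and 13 lower in S3_S, against a background of 7.88% of 42625 genes tested, 2.67% higher and 5.2% lower. The lower share of the members was thus 8.90%. After median-of-ratios scaling, which takes the median over all genes averaging 1 FPKM or more from -0.32 to about 0, 2 members were higher and 9 lower, against 4.23% and 2.18% of all genes. By a Benjamini-Hochberg adjusted p under 0.05 from limma 7 members passed, all lower, against 3.75% of all genes, 1.41% higher and 2.34% lower. It was 1 after median-of-ratios scaling and 0 with the replicate number as a block, which left 18 members past the first threshold. This stricter count fell to between 0 and 3 whichever single library was left out, and to 3 without S3_S replicate 1 or S3_C replicate 3. The libraries of both groups did not overlap for 34 of the 146 members, a lower share than the 30.8% of all genes, 6.35% higher and 24.4% lower. The 13 lower rows were 4 beta-glucosidases, 3 peroxidases, 2 F5H rows, 1 4CL, 1 CAD, 1 FAD-linked oxidoreductase and 1 row not described here, and the median over all members tested was -0.09 against -0.14 over all genes.

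The comparison of S2 with S1 asks what accompanies the first whitening. Of 143 members tested 17 passed, 14 higher and 3 lower in S2, against 9.06% of 42771 genes, 7.02% higher and 2.04% lower. After median-of-ratios scaling the split was 7 higher and 6 lower, against 2.46% and 4.27% of all genes. The balance of higher and lower rows thus depends on the scale, for the members and for all genes. No member had an adjusted p under 0.05, and 1 gene of the whole table did (0.00234%), which was higher in S2, while 30 members (21.0%) and 20.7% of all genes had an unadjusted p under 0.05 from limma. With all 12 libraries in 1 limma fit, 15 members had an adjusted p under 0.05, and so did 3643 of the 42771 genes. The libraries of S2 and S1 did not overlap for 33 of the 143 members, a lower share than the 28.2% of all genes, 23.8% higher and 4.32% lower. The higher rows were 5 peroxidases, 4 beta-glucosidases, 1 F5H, 1 4CL, 1 CAD and 2 rows not described here, and the median over the members was 0.07 against 0.21 over all genes.

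The comparison of S3_S with S1 sets green tissue of the later stage against green leaves of the first. Here 35 of 140 members passed, 8 higher and 27 lower in S3_S, against 19.2% of 42391 genes, 12.5% higher and 6.72% lower. The share lower was 19.3% for the members, while most genes that passed in the whole table were higher. The adjusted p was under 0.05 for 24 members, 8 higher and 16 lower, against 14.9% of all genes, 10.4% higher and 4.47% lower. The libraries did not overlap for 53 of the 140 members, a share close to the 39% of all genes, 25.9% higher and 13.2% lower. The count with an adjusted p under 0.05 fell to 0 without S1 replicate 2, S1 replicate 3, S3_S replicate 2 or S3_S replicate 3, and was 30 and 34 without S1 replicate 1 and S3_S replicate 1. The 27 lower rows comprised 9 beta-glucosidases, 6 peroxidases, 2 CADs, 2 rows of PAL and 4CL, 1 F5H, 1 aldehyde dehydrogenase and 6 rows not described here.

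The comparison of S3_C with S2 sets the later white center against leaves that had begun to whiten. Of 148 members 10 passed, 2 higher and 8 lower in S3_C, against 2.09% of 43059 genes, 1.41% higher and 0.678% lower. No member had an adjusted p under 0.05, and 2 genes of the whole table did (0.00464%, with 0.00232% in each direction), while 20 members (13.5%) and 7.60% of all genes had an unadjusted p under 0.05 from limma. The libraries did not overlap for 25 of the 148 members, a slightly higher share than the 14.3% of all genes, 10.6% higher and 3.65% lower. The count of 10 was 5 without S2 replicate 1 or S2 replicate 2 and 16 without S2 replicate 3. The lower rows were 3 peroxidases, 2 beta-glucosidases, 1 CAD and 2 rows not described here.

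**Figure D2:**
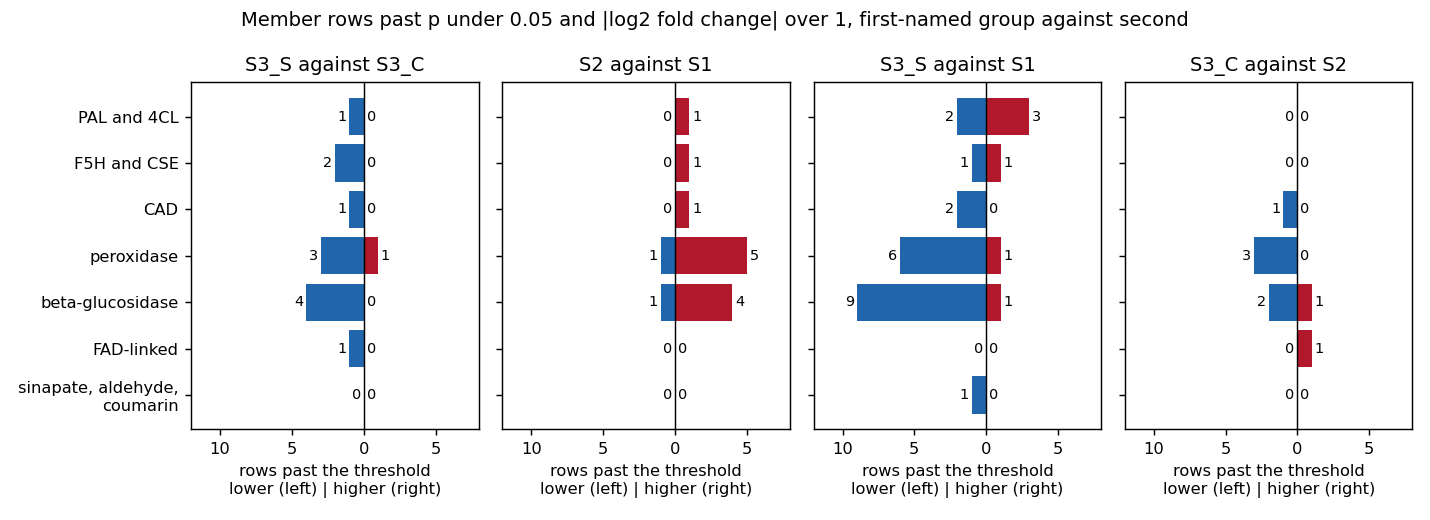
Number of the 140 described member rows (x axis, lower to the left in blue and higher to the right in red) past the threshold of p below 0.05 and a log2 change beyond 1 in size, by group of members (y axis) in each comparison. Of these rows the margin has 12 lower and 1 higher against the center and 21 lower and 6 higher against S1, while S2 has 12 higher and 2 lower against S1.

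At the entry to the pathway, PAL rows had low means and differed between libraries of S1. The 4 PAL rows had means from 0.53 to 1.87 FPKM over the 12 libraries, and the highest of them, Bo4g186590, owed its mean to 1 library, with 17.1, 0.361 and 0.786 FPKM in S1 and at most 1.01 in each of the other 9 libraries. S2 minus S1 came to -1.50 on the log2 scale and did not pass (adjusted p = 0.425 from limma). The next by level, Bo4g030910, was at 0.745, 9.66 and 4.11 FPKM in S1, 0.489, 0.548 and 0.538 in S2, 0.324, 0.906 and 0 in S3_S and 1.79, 0.289 and 0.627 in S3_C. It passed as lower in S3_S than in S1 with overlapping libraries, at -1.75 ± 0.68 on the log2 scale (adjusted p = 0.128 from limma), and of the fits that left out 1 library only the one without S1 replicate 1 kept the call. Another PAL row, Bo6g067250, ran the other way. It was at 0, 0.131 and 0 FPKM in S1, 1.13, 1.05 and 0 in S2, 1.63, 2.85 and 2.83 in S3_S and 0.0357, 9.5e-05 and 3.98 in S3_C. The margin libraries all lay above the S1 libraries, while S3_C had 1 high library and 2 within the S1 range. The difference between S3_S and S1 was 1.70 ± 0.23 (SE) on the log2 scale (adjusted p = 0.0206 from limma).

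In S3_S against S1, 4CL rows went in opposite directions. The row named 4CL1, the ligase that in Arabidopsis is tied mainly to lignin, was at 9.83, 9.34 and 6.89 FPKM in S1, 5.42, 8.95 and 11.9 in S2, 4.10, 0.938 and 3.24 in S3_S and 9.09, 5.79 and 9.04 in S3_C. The margin libraries were below all others. It passed as lower in S3_S against S3_C, with -1.35 ± 0.41 (adjusted p = 0.116 from limma), and against S1, with -1.47 ± 0.40 (adjusted p = 0.0569). The first of these calls was lost without S3_S replicate 2, S3_C replicate 1 or S3_C replicate 3 and after median-of-ratios scaling, where it did not reach the fold. Bo5g103450, a second 4CL row, was at 0.654, 0.713 and 0.167 FPKM in S1 and 2.95, 7.78 and 7.12 in S2, with no overlap and a difference of 2.14 ± 0.41 on the log2 scale (adjusted p = 0.105 from limma). In S3_S it stood at 1.05, 2.76 and 3.75 and in S3_C at 3.98, 3.90 and 4.59, again above S1 in every library. It passed as higher in S3_S than in S1 by 1.15 (adjusted p = 0.0882 from limma). That call was lost after scaling, with the replicate block, and without S1 replicate 3, S3_S replicate 2 or S3_S replicate 3. Against S3_C its change of -0.63 did not pass (adjusted p = 0.316), and had the same direction as that of 4CL1.

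F5H, the cytochrome P450 that opens the branch to syringyl units and sinapate esters, had 4 rows, 3 of them with a mean of at least 1 FPKM, and these 3 differed in pattern. Bo7g117840 was at 3.71, 7.07 and 4.26 FPKM in S1, 16.3, 27.7 and 10.6 in S2, 8.35, 4.01 and 1.61 in S3_S and 19.1, 12.7 and 6.91 in S3_C. It rose from S1 to S2 by 1.62 ± 0.39 (adjusted p = 0.124 from limma) without overlap, and passed as lower in S3_S than in S3_C with -1.39 ± 0.55 with overlapping libraries (adjusted p = 0.190). The latter call was lost without S3_S replicate 2, S3_S replicate 3, S3_C replicate 1 or S3_C replicate 2 and after median-of-ratios scaling, and it turned to 0.12 in the linear model with a library-size covariate. Bo1g005770 was instead at 1.40, 0.699 and 0.828 FPKM in S3_S, below 4.26, 4.35 and 3.47 in S3_C and 9.31, 5.77 and 8.23 in S1. It was lower, with -1.36 ± 0.25 and -2.14 ± 0.28 in those comparisons (adjusted p = 0.0459 and 0.0198 from limma), past the threshold whichever library was left out. Bo7g119430 was higher in S3_S than in S1 by 1.18 (adjusted p = 0.0826), a call that turned to -0.44 in the covariate model and was lost after scaling and without S1 replicate 1, S1 replicate 3, S3_S replicate 2 or S3_S replicate 3.

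CSE, which in Arabidopsis releases caffeate from its shikimate ester, had 2 rows and passed in no comparison. Its higher row, Bo6g030700, was at 17.9 ± 0.259 FPKM in S1, 15.5 ± 1.99 in S2, 12.4 ± 0.791 in S3_S and 17.1 ± 1.22 in S3_C (mean ± SD, n = 3), and its log2 fold changes of -0.44, -0.20, -0.50 and 0.14 are in the order of the comparisons above.

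Among the alcohol dehydrogenases, ATCAD9 was the highest row and the only 1 of 9 past the threshold in S3_S against S3_C. It was at 112, 222 and 155 FPKM in S1, 141, 221 and 84.6 in S2, 38.2, 18.8 and 15.7 in S3_S and 64.7, 74.0 and 56.5 in S3_C. The margin libraries were the lowest, the center libraries next, and S1 and S2 overlapped above both. The change was -1.48 ± 0.34 for S3_S against S3_C (adjusted p = 0.0685 from limma) and -2.74 ± 0.42 for S3_S against S1 (adjusted p = 0.0222), and both passed whichever library was left out. For S3_C against S2 it was -1.09 ± 0.39 (adjusted p = 0.631), and this call held only without S2 replicate 3 among the 6 fits that left out 1 library.

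Bo7g116770, a CAD row without further description, was at 33.0, 14.5 and 10.8 FPKM in S1, 13.0, 7.56 and 23.1 in S2, 7.73, 5.18 and 9.42 in S3_S and 14.9, 11.1 and 19.5 in S3_C. The margin libraries lay below the center and S1 libraries without overlap, and overlapped S2. Against S3_C the difference of -0.94 ± 0.28 did not reach the fold of the threshold (adjusted p = 0.109 from limma). Against S1 it was -1.16 ± 0.43 (adjusted p = 0.115) and passed, but not without S1 replicate 1, S1 replicate 2, S3_S replicate 1 or S3_S replicate 2.

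The row of CAD4, a main alcohol dehydrogenase of lignin synthesis in Arabidopsis, did not follow ATCAD9. It was at 27.7 ± 0.640 FPKM in S1, 25.0 ± 2.67 in S2, 27.5 ± 1.96 in S3_S and 31.8 ± 3.65 in S3_C, and the largest of its 4 changes was 0.34, in S3_C against S2 (adjusted p = 0.631 from limma). ATCAD1 was higher in S2 than in S1, at 27.4, 19.7 and 32.2 against 15.4, 11.01 and 6.41 FPKM, by 1.25 ± 0.35 (adjusted p = 0.141 from limma), and not after median-of-ratios scaling or without S1 replicate 3, and in the covariate model the change turned to -0.47.

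**Figure D3:**
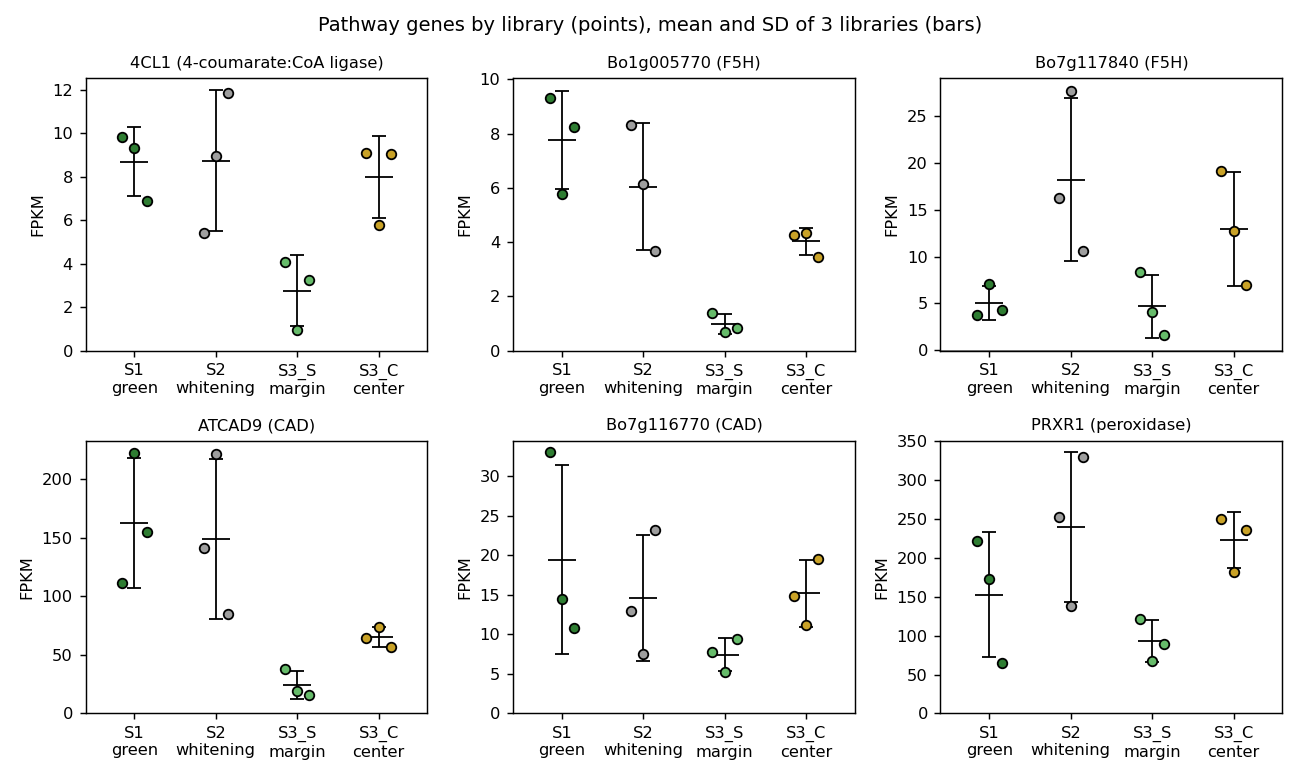
FPKM (y axis) of 6 pathway genes in the 4 groups (x axis); points are libraries and bars the mean and SD of 3. For 4CL1, Bo1g005770, ATCAD9 and Bo7g116770 the S3_S points lie below those of S3_C, and for Bo7g117840 the S2 points lie above those of S1.

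Peroxidases, which oxidize monolignols in the wall and also take part in other reactions with hydrogen peroxide, were the largest group. PRXR1, the highest member, was at 222, 173 and 64.6 FPKM in S1, 252, 138 and 330.0 in S2, 121, 67.5 and 89.5 in S3_S and 250.5, 182 and 236 in S3_C. The margin libraries lay below the center libraries and overlapped S1. The change of -1.28 ± 0.29 in S3_S against S3_C (adjusted p = 0.0671 from limma) passed whichever library was left out, and no longer reached the fold after median-of-ratios scaling.

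Bo9g175880 was the peroxidase with the largest changes in both white against green comparisons. It was at 0.895, 0.561 and 0.0941 FPKM in S1, 22.0, 1.91 and 15.8 in S2, 7.46, 1.39 and 1.21 in S3_S and 31.2, 21.7 and 8.02 in S3_C. Each S2 library lay above each S1 library and each center library above each margin library, with wide spread in S2, S3_S and S3_C. S2 was higher than S1 by 2.81 ± 0.81 and S3_S lower than S3_C with -2.40 ± 0.69 (adjusted p = 0.148 and 0.103 from limma). In the linear model with a library-size covariate the change of S2 against S1 turned to -2.35. Bo1g105620 was at 0.252, 0.212 and 0.490 FPKM in S3_S, 4.83, 6.52 and 2.47 in S3_C and 3.09, 2.29 and 1.66 in S1. It was lower in the margin with -2.02 ± 0.34 and -1.33 ± 0.25 (adjusted p = 0.0398 and 0.0281 from limma).

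1 peroxidase passed as higher in the margin. Bo8g101160 was at 2.21, 1.91 and 1.79 FPKM in S1, 5.97, 3.14 and 9.63 in S2, 12.1, 14.1 and 21.2 in S3_S and 6.18, 6.13 and 6.89 in S3_C. The order was S1 lowest, S2 and S3_C overlapping, and the margin highest in every library. It was the only member that passed as higher in S3_S than in S3_C, with 1.15 ± 0.22 (adjusted p = 0.0511 from limma), a call lost without S3_S replicate 3. Against S1 the margin was higher by 2.47 ± 0.25 (adjusted p = 0.0176), and S2 was higher than S1 by 1.19 ± 0.39 (adjusted p = 0.175), the last call lost without S1 replicate 2, S1 replicate 3, S2 replicate 1 or S2 replicate 3 and after scaling, and turned to -0.73 in the covariate model.

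Other peroxidases differed between the earlier groups. Bo8g077560 was at 10.5, 0.982 and 10.4 FPKM in S1 and at most 0.264 in any other library, while its neighbour Bo8g077570 was at 49.7, 57.4 and 37.2 in S1 and 76.6, 49.9 and 23.5 in S2. The fall of Bo8g077560 in S2 was -2.50 ± 0.73 (adjusted p = 0.151 from limma). Bo3g032450 was highest in S2, at 9.23, 11.3 and 5.38 FPKM against 1.57, 4.51 and 1.36 in S1, 0.247, 0.178 and 0.0677 in S3_S and 1.02, 0.615 and 0.681 in S3_C. It was higher in S2 than in S1 by 1.53 ± 0.43 and lower in S3_C than in S2 with -2.40 ± 0.33 (adjusted p = 0.147 and 0.450 from limma), without overlap and past the threshold in each fit that left out 1 library. Bo6g113130 was lower, with -1.62 in S3_S against S1 and with -1.30 in S3_C against S2, and Bo5g005370 with -1.58 in the latter. Each of these 3 calls was lost in at least 3 of the 6 fits that left out 1 library, those without S2 replicate 1, S2 replicate 2 or S3_C replicate 3 for both S3_C calls, with S3_C replicate 1 as well for Bo5g005370, and those without S1 replicate 2, S1 replicate 3, S3_S replicate 2 or S3_S replicate 3 for the S3_S call.

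Beta-glucosidases release aglycones, monolignols among them, from their glucosides, and the orthology also takes in enzymes that act on other sugars. BGLU44, the highest, passed in no comparison, at 117 ± 28.4 FPKM in S1, 170.0 ± 36.5 in S2, 86.5 ± 31.7 in S3_S and 100.1 ± 2.37 in S3_C. Its neighbour BGLU43 was at 4.67, 3.80 and 2.42 FPKM in S1, 11.4, 9.49 and 9.81 in S2, 3.90, 1.44 and 1.85 in S3_S and 14.0, 11.4 and 7.94 in S3_C. Each whitened group lay above its green counterpart without overlap, with 1.31 ± 0.25 for S2 against S1 and -1.87 ± 0.34 for S3_S against S3_C (adjusted p = 0.105 and 0.0460 from limma). The first call was lost after median-of-ratios scaling.

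BGLU11 had the largest rise at S2. It was at 0.458, 0.307 and 0.154 FPKM in S1, 9.59, 15.4 and 8.20 in S2, 6.94, 4.76 and 4.81 in S3_S and 12.1, 11.5 and 11.7 in S3_C. The S1 libraries were far below all others, and the margin stood between S1 and the 2 groups with white tissue. The change was 3.17 ± 0.32 for S2 against S1 (adjusted p = 0.0863 from limma) and 2.31 ± 0.27 for S3_S against S1 (adjusted p = 0.0191). For S3_S against S3_C it was -0.99, just short of the fold (adjusted p = 0.0440). Bo3g134180, a row of glycoside hydrolase family 3, also rose from 1.09, 0.329 and 0.0883 FPKM in S1 to 4.93, 2.98 and 2.45 in S2, by 1.59 ± 0.38 (adjusted p = 0.122 from limma).

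Several beta-glucosidases were high at S1 and low at the later stage. Bo3g039750, whose name stands on a second row and whose reads may be divided, was at 22.0, 40.2 and 33.9 FPKM in S1, 8.80, 6.95 and 4.25 in S2, 3.96, 1.76 and 1.31 in S3_S and 6.30, 2.80 and 2.00 in S3_C. It fell by 2.11 ± 0.33 in S2 and by 3.34 ± 0.36 in S3_S against S1 (adjusted p = 0.0928 and 0.0189 from limma). Bo7g031500 was at 42.7, 35.3 and 23.5 FPKM in S1 and 6.28, 1.02 and 1.08 in S3_S, a change of -3.44 ± 0.55 (adjusted p = 0.0231 from limma). Bo4g194980 and Bo4g022780 were the beta-glucosidases lower in both later groups. Bo4g194980 was at 4.84, 19.96 and 21.6 FPKM in S1 and 0.656, 0.444 and 0.532 in S3_S, and at 14.0, 49.6 and 5.34 in S2 and 1.64, 2.98 and 0.576 in S3_C. The S1 and S2 libraries lay above the later ones in both comparisons, by a wide and variable margin. The changes were -3.19 ± 0.54 and -2.73 ± 0.80 for Bo4g194980 and -2.93 ± 0.73 and -3.07 ± 0.73 for Bo4g022780 (adjusted p = 0.0249, 0.631, 0.0475 and 0.631 from limma).

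In S3_C against S2, 2 rows passed as higher. Bo4g179480, a beta-glucosidase, was at 6.35, 13.8 and 18.9 FPKM in S3_C, 3.24, 2.01 and 3.20 in S3_S, 2.27, 1.16 and 6.89 in S2 and 4.56, 0.471 and 0.376 in S1. The center libraries lay above the margin libraries, and 1 S2 library reached into the center's range. It was lower in the margin with -1.78 ± 0.40 (adjusted p = 0.0651 from limma) and higher in S3_C than in S2 by 1.76 ± 0.59 (adjusted p = 0.631), the latter lost without S2 replicate 1, S2 replicate 2, S3_C replicate 2 or S3_C replicate 3. Bo5g064370, an FAD-linked oxidoreductase of a family some of whose members oxidize monolignols in Arabidopsis, was at 5.57, 5.76 and 6.22 FPKM in S3_C and at most 3.35 in every other library. It was lower in the margin with -1.51 ± 0.26 and higher in S3_C than in S2 by 1.27 ± 0.33 (adjusted p = 0.0402 and 0.631 from limma), and passed whichever library was left out.

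ALDH2C4, the aldehyde dehydrogenase that in Arabidopsis makes ferulate and sinapate from the aldehydes, was the only member of its branch past the threshold. It was at 28.6, 36.3 and 26.4 FPKM in S1, 31.4, 22.8 and 20.9 in S2, 13.7, 13.0 and 10.0 in S3_S and 21.4, 19.9 and 19.8 in S3_C. The margin libraries were the lowest of the 12. It fell by 1.25 ± 0.20 in S3_S against S1 (adjusted p = 0.0232 from limma), and its difference of -0.70 from S3_C stayed under the fold (adjusted p = 0.0614).

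The comparisons of S3_S with S3_C and of S2 with S1 share no library, so the calls of both can be set side by side. Of the 13 rows lower in S3_S than in S3_C, 4 (30.8%) were among the 14 higher in S2 than in S1 (28.6% of those), namely BGLU43, Bo5g042760, Bo7g117840 and Bo9g175880, so each was higher in the group with more white tissue. None of the 13 was among the 3 rows lower in S2. Bo8g101160 passed as higher in both. After median-of-ratios scaling, only Bo9g175880 of these shared rows kept both calls. BGLU43, Bo5g042760 and Bo8g101160 lost that of S2 against S1, and Bo7g117840 that of S3_S against S3_C. The S2 call of Bo5g042760 was also lost without S1 replicate 2, S1 replicate 3 or S2 replicate 2. The overlap of calls was not counted over all genes, so these shares have no background beside them. Across the 132 members tested in both, Pearson's r between the log2 fold changes was -0.26, and across 40071 genes it was -0.32. These values are across genes, which are not independent replicates.

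**Figure D4:**
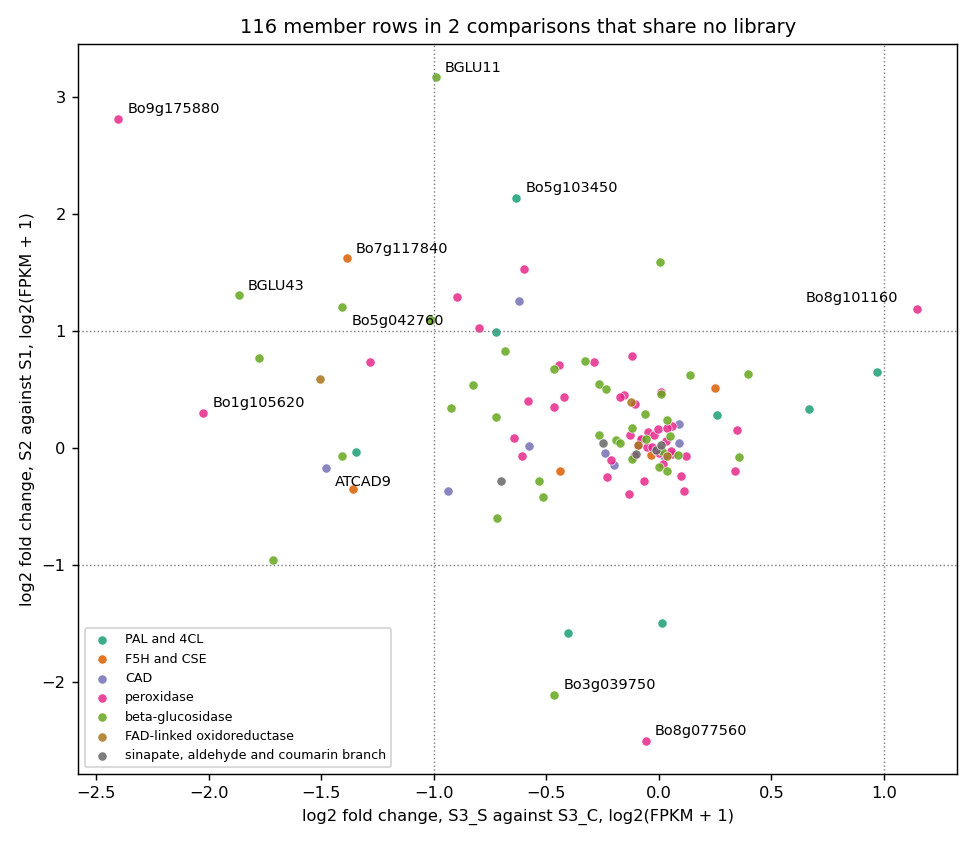
Log2 fold change on log2(FPKM + 1) of 116 described member rows in S3_S against S3_C (x axis) and in S2 against S1 (y axis), colored by group of members; dotted lines mark a log2 fold change of 1 in either direction. Rows at the upper left, such as Bo9g175880 with -2.40 and 2.81, were higher in S3_C and in S2, and Bo8g101160 stands alone at the upper right.

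S3_S against S1 and S3_C against S2 share no library either, and each sets a later group against an earlier one. Of the 27 rows lower in S3_S than in S1, 6 (22.2%) were among the 8 lower in S3_C than in S2 (75% of those): ATCAD9, Bo3g032450, Bo4g022780, Bo4g194980, Bo6g113130 and 1 row not described here. No row passed in opposite directions. Here too the overlap was not counted over all genes, so the shares have no background. Pearson's r across 131 members was 0.62, and across 40125 genes 0.58. A test of the difference between the 2 changes in a limma fit of all 12 libraries found no member with an adjusted p under 0.05, against 13 of 45325 genes, and 23 members (14.6%) and 11.4% of genes with an unadjusted p under 0.05.

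**Figure D5:**
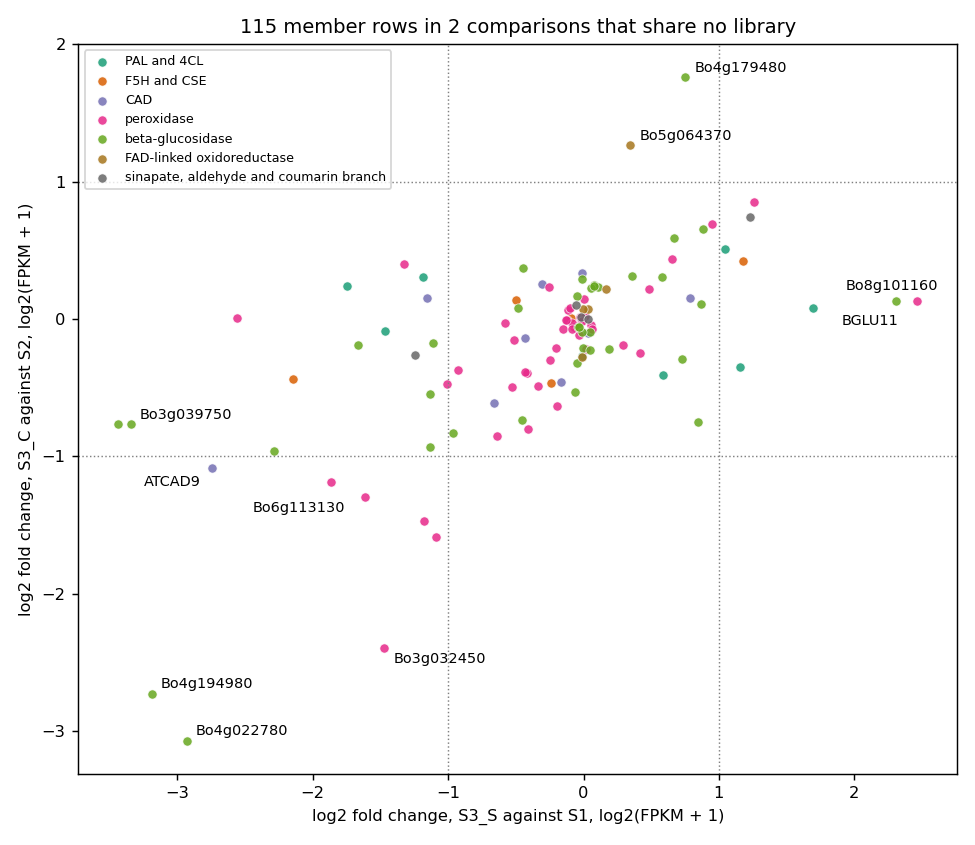
Log2 fold change on log2(FPKM + 1) of 115 described member rows in S3_S against S1 (x axis) and S3_C against S2 (y axis), colored by group of members; dotted lines mark a log2 fold change of 1 in either direction. Bo4g194980 and Bo4g022780 lie at the lower left, near -3 on both axes, while BGLU11 and Bo8g101160 are at the right with values near 0 on the y axis.

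Pathway rows outside the rule were read beside the members. Of the 18 rows also annotated to flavonoid biosynthesis, 3 passed as lower and none as higher in S3_S against S3_C, beside 5.2% and 2.67% of all genes. In S2 against S1, 1 was higher, beside 7.02% of all genes. In S3_S against S1, 7 were lower and 2 higher, beside 6.72% and 12.5%. None passed in S3_C against S2, beside 2.09%. The CCoAOMT rows Bo3g169210 and Bo7g116590, enzymes that act on CoA esters, were lower in S3_S than in S3_C with -1.10 and -1.44, and another CCoAOMT row, Bo2g056370, was higher in S3_S than in S1 by 3.61 (adjusted p = 0.126, 0.0512 and 0.0222 from limma). The HCT row Bo7g003460 was also lower in S3_S than in S3_C, with -1.12 (adjusted p = 0.0431 from limma). The row 4CL3, a ligase that in Arabidopsis serves flavonoid synthesis, was at 16.9, 23.01 and 24.6 FPKM in S1, 12.5, 10.5 and 5.19 in S2, 3.84, 0.733 and 0.117 in S3_S and 11.1, 9.37 and 1.10 in S3_C. It was lower in S2 and in S3_S than in S1, with -1.17 and -3.40 (adjusted p = 0.151 and 0.0231 from limma). The highest of 4 rows named CCR1, which carry no KEGG pathway, was at 98.9, 115 and 94.7 FPKM in S1, 43.2, 33.3 and 31.3 in S3_S and 123, 125 and 36.0 in S3_C. It was lower in S3_S than in S1, with -1.50 (adjusted p = 0.0213 from limma), and did not pass against S3_C (-1.19, adjusted p = 0.211). The second CCR1 row by level was also lower in S3_S than in S1, with -1.49 (adjusted p = 0.0344 from limma), and at -0.996 against S3_C stayed just short of the fold (adjusted p = 0.0402).

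Lists of regulators, phenylalanine supply and lignin polymerization were also read, with few rows matched. Of 19 regulators 3 were matched, and Bo9g028790, named for the homeodomain factor KNAT7 of secondary walls, was lower in S3_S than in S3_C with -1.10 (adjusted p = 0.0417 from limma). Of 14 genes of phenylalanine supply 7 were matched and 1 passed, DHS1, the first enzyme of the shikimate pathway, lower in S3_S than in S1 with -1.50 (adjusted p = 0.0439). Of 12 laccase, transporter and dirigent genes 4 were matched and none passed in any comparison. LAC10, LAC11 and the ABCG29 row Bo5g126190 were low, and their margin libraries lay below those of S3_C and of S1 without overlap. So did 24.4% and 13.2% of all genes. Against S3_C the changes of -0.97, -0.92 and -0.32 stayed under the fold (adjusted p = 0.0729, 0.0738 and 0.0267 from limma). Against S1 they were -0.94, -0.54 and -0.48 (adjusted p = 0.0365, 0.0852 and 0.252). The single matched rows of the phloem (of 4) and epidermis (of 3) lists did not pass either.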

How the data were processed

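The deposited table holds FPKM values per gene for 12 poly(A) libraries, 3 in each of 4 groups, sequenced as paired ends on an Illumina HiSeq instrument. The authors removed low-quality reads, aligned the rest with HISAT (HISAT2 2.0 in the submitters' processing notes) to the genome of Ensembl Plants, release 38, allowing 2 mismatches and 20 alignments per read, and assembled and quantified transcripts with StringTie 1.3.0, whose per-sample assemblies they merged. Strand-specific counting was not described, so reads of overlapping or antisense genes cannot be told apart. FPKM are not counts, so no count model was used and no counting interval is given.

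FPKM were tested as log2(FPKM + 1) with limma 3.58.1 (lmFit and eBayes, trend on) under R 4.3.3, on genes above 0 in at least 1 of the 6 libraries of a comparison, with p-values adjusted by Benjamini-Hochberg over all genes tested. The code was tested on simulated data. A single-value exact permutation test of 3 against 3 libraries cannot go below p = 0.1 and was not used. Alternatives were a pseudocount of 0.1, only genes averaging 1 FPKM or more, scaling by median of ratios, a replicate block, 1 fit of all 12 libraries, a linear model with a library-size covariate as in Ballgown, and each library left out. That covariate is the sum of a library's log2 values above 0 and under their upper quartile, and is not its read depth. Where it differs between the groups compared, that model cannot separate it from the group difference.

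Same-numbered libraries of S3_C and S2 deviated together in every pair (correlations 0.206 to 0.474 across all genes tested), which meets the criterion of 0.1 for pairing. The labels state no pairing. For S3_S and S3_C the range was 0.0968 to 0.421 over all genes tested and 0.113 to 0.467 over genes averaging 1 FPKM or more. Whether the criterion was met there depends on the genes taken, and blocked counts stand beside the result. The same-numbered range was -0.355 to 0.182 for S2 and S1, and -0.175 to 0.0208 for S3_S and S1. Differently numbered libraries also passed 0.1, with highest correlations over all genes tested of 0.200 for S3_C and S2 and 0.210 for S3_S and S3_C. They reached 0.439 for S2 and S1 and 0.185 for S3_S and S1. The criterion therefore cannot establish pairing.

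The members, gene lists and tests were chosen with earlier results of these data known. Named by rule were Bo7g116770, the highest row of each step held (PAL, 4CL, F5H, CSE, CAD) and, in each comparison, up to 6 rows per direction with the largest changes past the threshold and no overlap. Other rows, such as PRXR1, CAD4, ATCAD1, BGLU44, ALDH2C4, Bo1g005770 and the rows outside the pathway rule, were named after their values were seen. Results of 17 member rows, some of which the rule would name, are not reported here. The annotation table given names none of the Bo identifiers, so no coordinates are printed.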

Additional observations from a re-analysis of the deposited data

How the results depend on the processing

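The table holds no read numbers, so limits from depth cannot be stated. Members past the threshold with a pseudocount of 0.1 were 29 in S3_S against S3_C, 26 in S2 against S1 and 18 in S3_C against S2, against 14, 17 and 10. With this pseudocount they were 19.9%, 18.2% and 12.2% of the members tested, beside 16%, 16.2% and 5.09% of all genes. The linear model with a library-size covariate left 4, 4, 4 and 1 in the order of the report, and no member with an adjusted p under 0.05. These were 2.74%, 2.8%, 2.86% and 0.676% of the members tested, beside 2.42%, 2.38%, 2.15% and 0.994% of all genes. Adjusted p-values under 0.05 numbered 11 in S3_S against S3_C with a pseudocount of 0.1 or a mean of at least 1 FPKM, 1 after median-of-ratios scaling and 0 with the replicate block, against 7. In S2 against S1 they were 1 with the mean filter and 15 with all 12 libraries, against 0. Over all genes these 2 settings gave 142 and 3643, against 1. In S3_S against S1 the members numbered 0 with the block, against 24. The block gave 18, 16, 35 and 13 members past the threshold, beside 8.85%, 8.32%, 17.9% and 3.57% of all genes. It changed no other count by over 1.5 times.

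The median of the members in S3_S against S3_C, -0.093, was -0.33 with a pseudocount of 0.1, -0.57 with the mean filter and -0.019 scaled. In S2 against S1, 0.068 became 0.30, 0.25 and -0.017 with these 3 and -0.063 with the covariate. In S3_S against S1, -0.066 became -0.39 with the pseudocount, -0.53 with the filter, -0.12 scaled and -0.18 with the covariate, and in S3_C against S2, -0.049 became -0.21, -0.18 and, scaled, -0.079. The cause of these shifts was not tested. With 1 library left out, the members past the threshold were 11 to 20, 12 to 22, 27 to 37 and 5 to 16 in the 4 comparisons, those with an adjusted p under 0.05 were 0 to 3, 0 to 0, 0 to 34 and 0 to 0, and the medians were -0.14 to -0.080, 0.047 to 0.14, -0.10 to -0.024 and -0.073 to -0.026.

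Among single genes, directions reversed with the covariate for Bo7g117840 in S3_S against S3_C (0.12), for Bo7g119430 (-0.44) and Bo8g077560 (0.47) in S3_S against S1, and in S2 against S1 for ATCAD9 (1.04), Bo9g175880 (-2.35), Bo1g078620 (-0.025), ATCAD1 (-0.47), Bo8g101160 (-0.73) and Bo2g056370 (-1.36). Leaving out 1 library gave ranges that cross 0 for uncalled changes in S2 against S1, -0.75 to 0.075 for Bo7g116770, -0.26 to 0.24 for 4CL1 and -0.51 to 0.17 for ATCAD9, and for Bo4g186590 in S3_S against S3_C, -0.12 to 0.20.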

Other observations

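Of the summed FPKM of Bo5g100950, a row of sinapate glucosyltransferase orthology, 76.3% was in S3_S replicate 2, and of that of the PAL row Bo4g186590, 76.2% was in S1 replicate 1. Of the 15 pairs of neighbouring loci with the same orthology, 5 had both rows at a mean of 1 FPKM or more, BGLU43 and BGLU44 among them.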
